A study of Mus musculus with 15 samples.

Results

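Slpi, Tmprss11g, Spink7, Prss35, Serpina9 and Fetub are 6 mouse genes for proteases and protease inhibitors that were followed through a skin wounding course. They are 6 of 30281 named genes in the count files. They were chosen by their symbols, with earlier results of the same libraries known, as genes whose CPM changed over the course (counts relative to the library total, scaled by the TMM method), most of them upward from day 0. Differences from day 0 are therefore given as a description, and no test of them supports anything here. All 6 passed the filter on low counts, as 17136 genes did.

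The libraries came from skin of C57BL/6 mice at day 0, 1, 3, 5 and 7 of the course, with 3 libraries at each time and 15 in all. The labels carry the same wound stress for day 0 as for the later days, so the earliest group is called day 0 and not unwounded skin. Muscle and fat were cleared from the skin before sequencing of polyadenylated RNA, per the labels' protocols. Whether the 3 libraries of each time are separate animals is not labelled, so a p-value reflects only how far these samples spread, and that spread may be technical. Library totals ran from 38062562 to 60450396 estimated counts. As a check of the tissue, 10 basal keratinocyte markers summed to 2790 to 10100 CPM over the libraries, and 10 skeletal muscle markers still summed to 2540 to 11300 CPM. Hair follicle markers set day 5 replicate 2 and day 7 replicate 3 apart from the other libraries, and wound-edge keratinocyte markers set day 0 replicate 1 apart from the other day 0 libraries.

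Tissue surfaces make secreted and membrane-bound proteases together with the inhibitors that restrain them. In healing skin such enzymes act on the provisional matrix, on cell junctions and on cytokine precursors, while leukocyte proteases arrive with the infiltrate and are held in check by inhibitors of several unrelated folds. Of the 6 genes, Slpi encodes a secreted inhibitor with WAP domains that blocks neutrophil elastase and cathepsin G, Spink7 a Kazal-type inhibitor known from human oesophageal epithelium, Serpina9 a clade A serpin known from human germinal centre B cells, and Fetub the plasma protein fetuin-B, a cystatin-superfamily inhibitor of astacin metalloproteases. Tmprss11g encodes a type II transmembrane serine protease of the HAT/DESC group, and Prss35 a secreted protein related to trypsin whose catalytic serine is replaced.

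The 6 genes did not follow a single course. Mean CPM was highest at day 1 for Slpi, at day 3 for Tmprss11g, at day 5 for Fetub and Serpina9 and at day 7 for Spink7 and Prss35. To show genes with 4 different times of highest mean side by side, the 250 bases before the RefSeq transcription start of 4 of the genes are given here 5′ to 3′ on the strand of the gene, from build GRCm38.p6. Capitals mark every match, on either strand, to 6 motifs. They were the core promoter box TATAAA, the AP-1 motif TGANTCA, the C/EBP motif TTNNGCAA, the NF-kB consensus, the grainyhead-like motif AACNGGTT and the E-box CACGTG. The table held entries for 4 of the 6 members, with 5 starts, and Spink7 and Serpina9 are named only.
Slpi (chr2:164356508-164356757, minus strand): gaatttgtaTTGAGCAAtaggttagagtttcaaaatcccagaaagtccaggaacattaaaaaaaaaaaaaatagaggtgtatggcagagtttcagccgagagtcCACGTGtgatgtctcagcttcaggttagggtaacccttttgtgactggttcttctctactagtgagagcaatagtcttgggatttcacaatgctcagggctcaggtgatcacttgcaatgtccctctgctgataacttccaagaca
Tmprss11g (chr5:86518601-86518850, minus strand): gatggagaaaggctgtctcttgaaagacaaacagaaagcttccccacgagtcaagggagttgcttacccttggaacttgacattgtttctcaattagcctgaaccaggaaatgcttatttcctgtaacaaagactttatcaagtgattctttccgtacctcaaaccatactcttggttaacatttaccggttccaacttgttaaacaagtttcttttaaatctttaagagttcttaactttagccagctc
Fetub (chr16:22918132-22918381, plus strand): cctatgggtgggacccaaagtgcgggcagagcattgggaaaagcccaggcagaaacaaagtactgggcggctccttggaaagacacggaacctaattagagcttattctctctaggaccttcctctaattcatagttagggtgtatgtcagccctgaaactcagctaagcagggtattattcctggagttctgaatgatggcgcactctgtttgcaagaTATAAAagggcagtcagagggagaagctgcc
Prss35 (chr9:86743383-86743632, plus strand): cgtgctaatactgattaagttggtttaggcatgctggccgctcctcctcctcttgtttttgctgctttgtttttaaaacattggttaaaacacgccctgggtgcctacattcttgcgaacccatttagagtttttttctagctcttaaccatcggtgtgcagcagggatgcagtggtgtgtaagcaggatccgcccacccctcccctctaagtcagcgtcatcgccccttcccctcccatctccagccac

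The Slpi sequence held TTGAGCAA, a C/EBP match 241 to 234 bases upstream, and CACGTG, an E-box 146 to 141 bases upstream. The Fetub sequence held TATAAA 31 to 26 bases upstream of its start. No motif of the 6 matched in the Tmprss11g or Prss35 window, nor in that of a second Fetub start (chr16:22919972-22920221). None of the matches overlapped another. Among 32536 distinct promoter windows of the same length, 12.3% held TATAAA, 9.57% TTNNGCAA, 6.73% TGANTCA, 6.04% CACGTG, 1.79% AACNGGTT and 0.36% the NF-kB consensus. GC content was 42.0% for Slpi, 38.8% for Tmprss11g, 49.2% for Fetub and 50.8% for Prss35, against a median of 52.4% over all windows. A match is a description of letters, and binding was not measured.

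**Figure D1:**
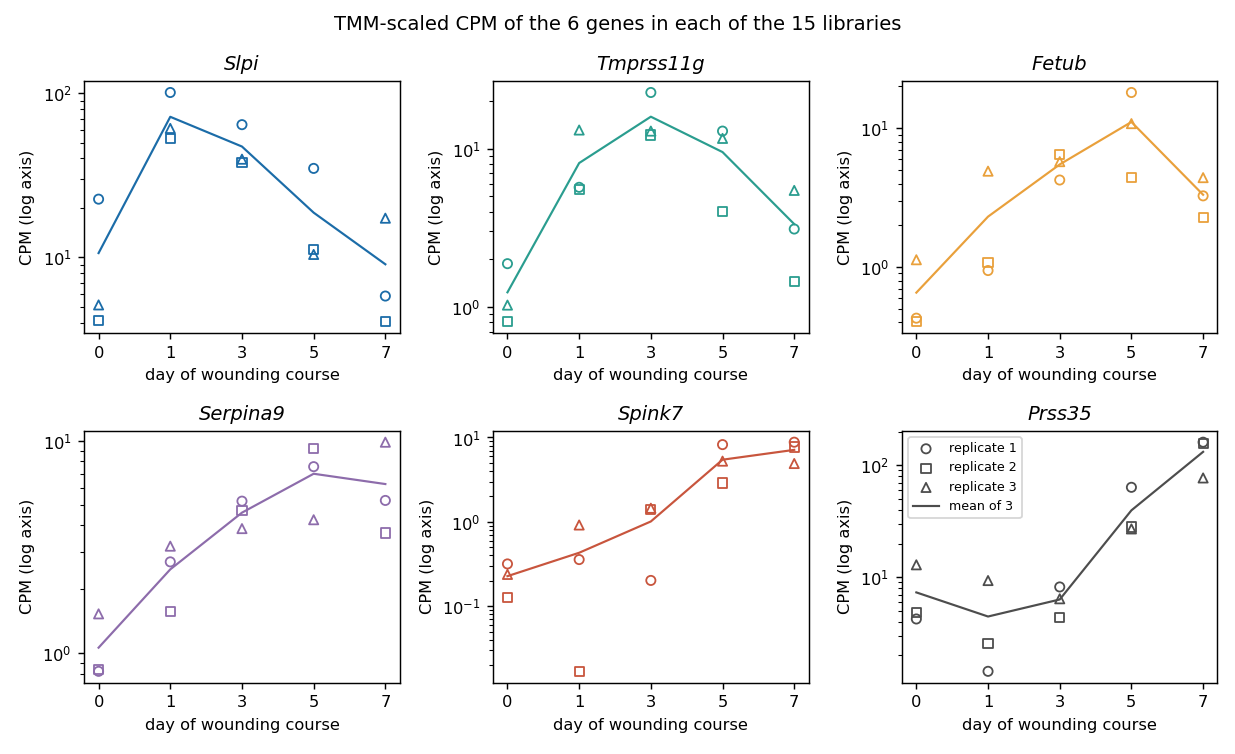
TMM-scaled CPM (log axis, a separate range for each panel) of the 6 genes against the day of the course. Each symbol is a library of replicate 1, 2 or 3 and the line joins the means of 3 libraries. Slpi was highest at day 1 (71.8 CPM), Tmprss11g at day 3 (15.9 CPM), Fetub and Serpina9 at day 5 (11.1 and 7.0 CPM), and Spink7 and Prss35 at day 7 (7.13 and 132 CPM).

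Slpi, the inhibitor of neutrophil elastase, was at 22.6, 4.10 and 5.12 CPM in the day 0 libraries, at 101, 53.2 and 61.0 CPM at day 1, at 64.3, 37.9 and 39.6 CPM at day 3, at 34.8, 11.1 and 10.4 CPM at day 5, and at 5.8, 4.05 and 17.3 CPM at day 7. Day 1 and day 3 lay above day 0 in every library, day 5 and day 7 overlapped day 0, and day 1 overlapped day 3. Its mean was 12.6% of the day 1 mean on day 7 and 14.8% of it on day 0. On the log2 scale Slpi differed from day 0 by 2.76 ± 0.76 (SE) at day 1, 2.15 ± 0.74 at day 3, 0.82 ± 0.72 at day 5 and -0.23 ± 0.72 at day 7. Replicate 1 was the highest library of its time at day 0, 1, 3 and 5. At day 0 that library also carried 2430 CPM of summed wound-edge keratinocyte markers (11 genes, among them Krt6a and Krt16), against 389 and 526 CPM in the other day 0 libraries, and the part of these markers in the Slpi value was not tested.

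Tmprss11g, the transmembrane protease, was at 1.88, 0.81 and 1.03 CPM in the day 0 libraries, at 5.70, 5.52 and 13.1 CPM at day 1, at 22.6, 12.2 and 12.9 CPM at day 3, at 12.9, 4.03 and 11.6 CPM at day 5, and at 3.11, 1.45 and 5.45 CPM at day 7. Every library of day 1, 3 and 5 lay above the day 0 libraries, and day 7 overlapped them. Neighbouring times overlapped from day 1 onward. Its differences from day 0 were 2.70 ± 0.59, 3.67 ± 0.61, 2.93 ± 0.59 and 1.42 ± 0.57 on the log2 scale at day 1, 3, 5 and 7. The mean at day 3 was 12.8 times that at day 0.

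Fetub, which encodes fetuin-B, was at 0.429, 0.405 and 1.13 CPM in the day 0 libraries, at 0.945, 1.08 and 4.91 CPM at day 1, at 4.24, 6.47 and 5.75 CPM at day 3, at 18.1, 4.44 and 10.8 CPM at day 5, and at 3.26, 2.28 and 4.41 CPM at day 7. Day 3, 5 and 7 lay above day 0 in every library, while day 1 overlapped both day 0 and day 3. The highest library, day 5 replicate 1, stood well above the lowest of that time, so the day 5 mean of 11.1 ± 6.84 CPM (SD, n = 3) has a wide error. Fetuin-B is known in the mouse as a liver product that protects the egg coat from the astacin protease ovastacin. Of 10 listed hepatocyte markers, 9 were in the files, and they summed to 22.0 CPM in day 1 replicate 2 and to 1.19 to 3.8 CPM in the remaining libraries. Fetub itself was at 1.08 CPM in day 1 replicate 2, among its lower values, and the part of these markers in the Fetub values was not tested. On the log2 scale Fetub differed from day 0 by 1.81 ± 0.68, 3.05 ± 0.70, 4.07 ± 0.73 and 2.33 ± 0.69 at day 1, 3, 5 and 7.

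Serpina9, the clade A serpin, was at 0.820, 0.835 and 1.53 CPM in the day 0 libraries, at 2.69, 1.57 and 3.19 CPM at day 1, at 5.2, 4.71 and 3.86 CPM at day 3, at 7.56, 9.19 and 4.25 CPM at day 5, and at 5.24, 3.68 and 9.86 CPM at day 7. It was the only member whose libraries lay above all day 0 libraries at each of the 4 later times, with differences of 1.22 ± 0.42, 2.11 ± 0.42, 2.72 ± 0.43 and 2.56 ± 0.43 on the log2 scale at day 1, 3, 5 and 7. Day 5 and day 7 overlapped each other and day 3. The highest library, day 7 replicate 3, and the second highest, day 5 replicate 2, were the 2 in which hair follicle markers took 1.12% and 0.972% of the counts, with 0.12% or less in the remaining 13, and the part of these markers in the Serpina9 values was not tested. B and plasma cell markers summed to 98.8 to 190 CPM at day 0, 26 to 65.1 CPM at day 1, 86.4 to 104 CPM at day 3, 65.0 to 103 CPM at day 5 and 42.3 to 84.7 CPM at day 7, most of it Ighm, and the B cell factor Pax5 averaged at most 0.0678 CPM at any time.

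Spink7, the Kazal-type inhibitor, was at 0.317, 0.127 and 0.238 CPM in the day 0 libraries, at 0.357, 0.0169 and 0.917 CPM at day 1, at 0.202, 1.39 and 1.45 CPM at day 3, at 8.23, 2.89 and 5.24 CPM at day 5, and at 8.79, 7.70 and 4.91 CPM at day 7. The values before day 5 rest on few reads, with 17, 5 and 12 estimated counts at day 0 and 20, 1 and 50 at day 1. Day 0, 1 and 3 overlapped, day 5 and 7 overlapped, and each library of day 5 and 7 lay above each earlier one. The differences from day 0 were 0.88 ± 0.93, 2.11 ± 0.92, 4.55 ± 0.96 and 4.93 ± 0.98 on the log2 scale at day 1, 3, 5 and 7. The oral and oesophageal keratins Krt4 and Krt13 averaged at most 1.11 and 0.113 CPM at any time.

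Prss35, the protease-like gene, was at 4.23, 4.81 and 12.9 CPM in the day 0 libraries, at 1.44, 2.57 and 9.33 CPM at day 1, at 8.18, 4.36 and 6.41 CPM at day 3, at 63.6, 28.1 and 27.0 CPM at day 5, and at 161, 157 and 77.1 CPM at day 7. Day 0, 1 and 3 overlapped, every day 5 library lay above them, and every day 7 library lay above day 5. The differences from day 0 were -0.72 ± 0.65, -0.21 ± 0.65, 2.43 ± 0.67 and 4.17 ± 0.72 on the log2 scale at day 1, 3, 5 and 7. Prss35 was thus at its lowest mean, 3.38% of its highest, on the day when Slpi was at its highest.

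Within a gene the highest mean was 6.6 times the day 0 mean for Serpina9, 6.77 times for Slpi, 12.8 times for Tmprss11g, 17.0 times for Fetub, 18.0 times for Prss35 and 31.4 times for Spink7. These ratios depend on single day 0 libraries: the ratio was 15.6 for Slpi without day 0 replicate 1, and without day 0 replicate 3 it was 26.7 for Fetub and 29.1 for Prss35. To compare levels between genes, mean CPM at the highest time was divided by the length in kb of the longest protein-coding transcript. On that scale Slpi came highest with 82.0 CPM per kb, before Prss35 with 38.2, Spink7 with 13.2, Fetub with 6.96, Tmprss11g with 5.54 and Serpina9 with 1.96. In bulk tissue, more cells of a type and more RNA per cell cannot be told apart.

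**Figure D2:**
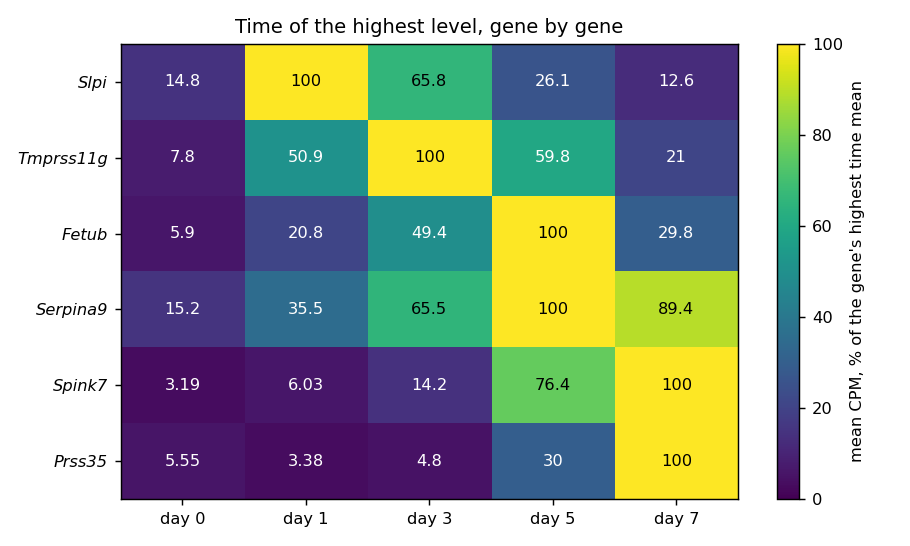
Mean TMM-scaled CPM of each gene at each day as a percentage of that gene's highest mean (colour scale 0 to 100%), with 3 libraries a mean. The highest cell moves from day 1 in Slpi to day 7 in Spink7 and Prss35, and Serpina9 is still at 89.4% of its highest mean on day 7 when Slpi is at 12.6%.

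Calls were made by the quasi-likelihood test of edgeR, at a Benjamini-Hochberg adjusted p below 0.05 over 17136 genes. Against day 0 the called members were Slpi and Tmprss11g at day 1 (2 of 6, with 4.22% of all genes called higher), Tmprss11g and Serpina9 at day 3 (2 of 6, with 0.595%), Fetub and Serpina9 at day 5 (2 of 6, with 0.21%), and Prss35, Spink7 and Serpina9 at day 7 (3 of 6, with 3.1%). Libraries of the later time lay apart from day 0 for 3 members at day 1, 4 at day 3, 5 at day 5 and 4 at day 7, against 37.8%, 25.5%, 26.2% and 29.2% of all genes. These contrasts chose the genes, and nothing is read from the counts.

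Comparisons among the later times ask how the members moved once the course was under way. Between neighbouring times no member passed edgeR's adjusted threshold. For day 3 against day 1 it was 0 of 6 members (0.00584% of all genes called), with 1 below an unadjusted p of 0.05 and 0 by DESeq2 and by limma voom. For day 5 against day 3 it was 0 of 6 (0.0233% of all genes), with 2 at an unadjusted p under 0.05, 1 by DESeq2 (Prss35) and 0 by limma voom. For day 7 against day 5 it was 0 of 6 (0.00584% of all genes), with 3 below an unadjusted p of 0.05 and 0 by DESeq2 and by limma voom. Libraries of the times compared did not overlap for Serpina9 at day 3 against day 1 (1 of 6, with 24.9% of all genes). The same held for Slpi, Spink7 and Prss35 at day 5 against day 3 (3 of 6, with 21.6%). At day 7 against day 5 it held for Prss35 and Fetub (2 of 6, with 11.1%). No change of a member is read from these separations. At day 5 against day 3 the log2 differences were -1.33 ± 0.72 for Slpi, 2.43 ± 0.85 for Spink7 and 2.65 ± 0.68 for Prss35.

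At day 5 against day 1, Prss35, Spink7 and Serpina9 were higher (3 of 6, with 2.41% of all genes called higher). Prss35 rose by 3.15 ± 0.69 (SE) on the log2 scale (edgeR adjusted p = 0.0203), with means of 39.6 ± 20.8 CPM at day 5 and 4.45 ± 4.27 CPM at day 1 (SD, n = 3 each). Spink7 rose by 3.67 ± 0.91 (edgeR adjusted p = 0.0314), with 5.45 ± 2.68 CPM at day 5 and 0.43 ± 0.454 CPM at day 1. Both inhibitors and the protease-like gene were higher in each day 5 library than in each day 1 library, as 4 members and 31.4% of all genes were apart in this comparison, Slpi with day 5 lower. Serpina9 rose by 1.5 ± 0.41 (edgeR adjusted p = 0.0457), with 7.0 ± 2.52 CPM at day 5 and 2.48 ± 0.829 CPM at day 1. Fetub differed by 2.26 ± 0.66 (edgeR adjusted p = 0.0592), Slpi by -1.94 ± 0.73 (edgeR adjusted p = 0.134) and Tmprss11g by 0.23 ± 0.54. Without day 1 replicate 3 the differences were 4.30 for Prss35 and 4.86 for Spink7. Several single libraries carried these calls. The Prss35 call was lost without day 1 replicate 1, day 1 replicate 2 or day 5 replicate 1 (edgeR adjusted p = 0.0728, 0.0892 and 0.0648), and the Spink7 call without replicate 1 or 2 of day 1, or replicate 1 or 3 of day 5 (edgeR adjusted p = 0.128, 0.0649, 0.0867 and 0.0587). The Serpina9 call was lost without any library of day 1 or day 3, day 0 replicate 2, day 5 replicate 1 or 2, or day 7 replicate 1 (edgeR adjusted p = 0.056 to 0.165). A model of only the 2 times compared called 0 of the 3 (edgeR adjusted p = 0.0817 to 0.0994). Without both libraries rich in hair follicle markers Serpina9 differed by 1.25 (edgeR adjusted p = 0.0522), and without the filter on low counts by 1.51 (edgeR adjusted p = 0.0544). With the replicate number as a block it differed by 1.58 (edgeR adjusted p = 0.0586).

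At day 7 against day 1, Prss35, Spink7 and Serpina9 rose (3 of 6, with 5.75% of all genes called higher) and Slpi fell (1 of 6, with 8.59% called lower). Prss35 rose by 4.89 ± 0.75 on the log2 scale (edgeR adjusted p = 0.00194), with means of 132 ± 47.3 CPM at day 7 and 4.45 ± 4.27 CPM at day 1. Spink7 rose by 4.05 ± 0.92 (edgeR adjusted p = 0.0130), with 7.13 ± 2.0 CPM at day 7 and 0.43 ± 0.454 CPM at day 1. Serpina9 rose by 1.33 ± 0.41 (edgeR adjusted p = 0.0463), with 6.26 ± 3.22 CPM at day 7 and 2.48 ± 0.829 CPM at day 1. Slpi, the only member lower by this test, fell by 2.98 ± 0.77 (edgeR adjusted p = 0.0244), with 9.06 ± 7.21 CPM at day 7 and 71.8 ± 25.8 CPM at day 1. The groups did not overlap for these 4 genes or for Tmprss11g, which was lower at day 7 without being called, and 33.1% of all genes were apart in this way. Prss35 was called whichever of the 15 libraries was left out (edgeR adjusted p = 0.00156 to 0.012, log2 differences of 4.49 to 6.03). Day 1 replicate 3 held the highest day 1 values of Prss35 and Spink7, and without it the differences were 6.03 for Prss35 and 5.25 for Spink7. Without day 7 replicate 3 Slpi differed by -3.85. Spink7 lost its call without day 1 replicate 1 (edgeR adjusted p = 0.0589), and Slpi without day 1 replicate 1, day 7 replicate 1 or day 7 replicate 2 (edgeR adjusted p = 0.083, 0.0708 and 0.0829). The Serpina9 call was lost without any library of day 1 or day 3, day 0 replicate 2, day 5 replicate 1, or day 7 replicate 1 or 3 (edgeR adjusted p = 0.0574 to 0.153). Without both libraries rich in hair follicle markers, Serpina9 differed by 0.84 (edgeR adjusted p = 0.124). Its call was also lost without the filter on low counts and with limma voom (adjusted p = 0.054 and 0.0538), and with the replicate number as a block (edgeR adjusted p = 0.067). Like that of Spink7, it was lost in a model of only the 2 times compared (edgeR adjusted p = 0.118 and 0.0543).

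At day 7 against day 3, Prss35 was higher (1 of 6, with 3.68% of all genes called higher) and Tmprss11g was lower (1 of 6, with 5.78% called lower). Prss35 rose by 4.38 ± 0.73 on the log2 scale (edgeR adjusted p = 0.00905), with means of 132 ± 47.3 CPM at day 7 and 6.32 ± 1.91 CPM at day 3. Tmprss11g fell by 2.25 ± 0.57 (edgeR adjusted p = 0.0310), with 3.34 ± 2.01 CPM at day 7 and 15.9 ± 5.79 CPM at day 3. These groups did not overlap for the called pair, nor for Slpi and Spink7, as for 31.2% of all genes. Slpi differed by -2.38 ± 0.75 (edgeR adjusted p = 0.0663), Spink7 by 2.82 ± 0.86 (edgeR adjusted p = 0.0582) and Fetub by -0.72 ± 0.64. The Prss35 call was lost without day 3 replicate 2 (edgeR adjusted p = 0.0545), and the Tmprss11g call without replicate 1 or 2 of day 3, or of day 7 (edgeR adjusted p = 0.102, 0.0801, 0.0616 and 0.0937) and in a model of only the 2 times compared (edgeR adjusted p = 0.0802). An F test for any difference among day 1, 3, 5 and 7 called Prss35 (edgeR adjusted p = 0.00292) and Spink7 (edgeR adjusted p = 0.0261), 2 of 6 members, with 10.7% of all genes called. These comparisons share libraries, and the genes were picked with earlier results known, so they are not independent of each other or of the choice.

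**Figure D3:**
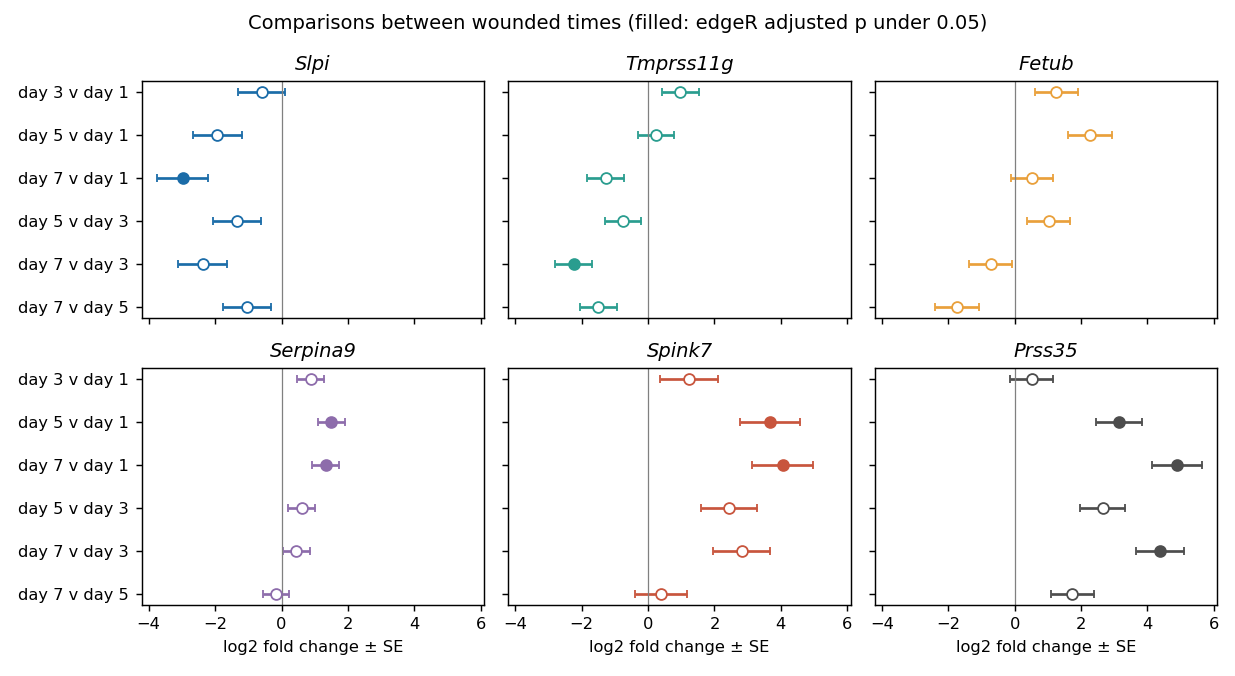
Log2 differences (points) with standard errors (bars) of the 6 genes between later times of the course, from edgeR's model over 15 libraries, with called contrasts filled. Prss35 reached 4.89 and Spink7 4.05 at day 7 against day 1, and Slpi -2.98.

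The genes whose course was most like each member's were taken by Pearson's r of log2 CPM over the 15 libraries, which share times and, in part, wound composition, so r is a description. For Slpi they were S100a9 (r = 0.982), Stfa2l1 (r = 0.966), S100a8 (r = 0.965), Gsta4 (r = 0.961) and Trem1 (r = 0.960). S100a8 and S100a9 are calcium-binding proteins abundant in neutrophils, and Stfa2l1 has close copies that leave its value uncertain. S100a9 averaged 43.9, 567, 372, 102 and 57.0 CPM at day 0, 1, 3, 5 and 7, and 15.8 CPM at day 7 without replicate 3. A list of 12 neutrophil markers summed to 199 to 381 CPM at day 0, 1010 to 1460 CPM at day 1, 677 to 1060 CPM at day 3, 198 to 460 CPM at day 5 and 130 to 311 CPM at day 7, with 8 of the 12 called over the 5 times. An F test over the 5 times called 13.9% of all genes, the share to set beside this and later counts of called markers. The sum of 11 wound-edge keratinocyte markers, 3 of them called, was 389 to 2430 CPM at day 0, 3080 to 6310 CPM at day 1, 5970 to 7450 CPM at day 3, 3540 to 4510 CPM at day 5 and 1190 to 3340 CPM at day 7. The neutrophil list holds S100a8 and S100a9, which averaged 257 and 567 CPM at day 1. These genes, named above for their r with Slpi, made up most of the neutrophil sum at day 1. The neutrophil sum, like Slpi, was highest at day 1, while the wound-edge sum was highest at day 3. Within the neutrophil list Il1r2 and Camp had their highest means at day 0 (127 and 1.21 CPM). Ngp was highest at day 3 (0.268 CPM), Ltf at day 7 (0.28 CPM) and the rest at day 1. Within the wound-edge list the day of the highest mean differed between genes. It was day 1 for Stfa1, Il24 and Plaur, and day 3 for Krt6a, Krt6b, Krt16, Sprr1b and Sprr2d. It was day 5 for Krt17 and day 7 for Lce3a and Lce3c. The part of either list in the Slpi values was not tested.

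For Tmprss11g the nearest genes were 2610528A11Rik (r = 0.964), Krt14 (r = 0.935), Raet1e (r = 0.934), Gm5478 (r = 0.929) and Cbln1 (r = 0.924). Krt14, a keratin of basal keratinocytes, averaged 1380, 3420, 5040, 3450 and 1940 CPM at day 0, 1, 3, 5 and 7. The 10 basal keratinocyte markers, 6 of them called, summed to 2790 to 5610 CPM at day 0, 5360 to 9610 CPM at day 1, 7480 to 10100 CPM at day 3, 5700 to 7610 CPM at day 5 and 3910 to 4780 CPM at day 7, and their part in the Tmprss11g values was not tested. Krt14 made up most of the basal sum at day 3, while Itgb4 was highest at day 1, Krt15 at day 5 and Trp63 at day 7. The course is not particular to this list. Wound-edge keratinocyte and endothelial markers also had their highest median sum at day 3, at 5970 to 7450 and 624 to 858 CPM. Their part was not tested either. For Fetub the nearest genes were Hhipl1 (r = 0.950), Sprr2a2 (r = 0.936), Tmprss11d of the Tmprss11g cluster (r = 0.928), Kcnv1 (r = 0.921) and Sprr2a1 (r = 0.921). The Sprr2a genes encode cornified envelope proteins, and their near-identical copies make their values uncertain.

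For Serpina9 they were Sorcs2 (r = 0.935), Myo10 (r = 0.928), Igsf3 (r = 0.923), Sprr2k (r = 0.918) and Mgat4a (r = 0.916). For Spink7 they were Plekhg4 (r = 0.947), Nmu (r = 0.940), Cnot6l (r = 0.933), Il1f6 (r = 0.912) and Akr1d1 (r = 0.885). Il1f6, an epithelial cytokine of the interleukin-1 family also known as IL-36 alpha, averaged 3.69, 4.42, 4.09, 12.0 and 13.1 CPM at day 0, 1, 3, 5 and 7. For Prss35 they were Matn2 (r = 0.962), Mdk (r = 0.959), Postn (r = 0.959), Edil3 (r = 0.955) and Adamts16 (r = 0.952). Postn, a matrix protein of activated fibroblasts, averaged 996, 817, 1300, 2270 and 3530 CPM at day 0, 1, 3, 5 and 7. The 8 myofibroblast markers, 4 of them called and Postn among them, summed to 1390 to 1660 CPM at day 0, 1300 to 2330 CPM at day 1, 2400 to 2850 CPM at day 3, 2450 to 4830 CPM at day 5 and 4700 to 4890 CPM at day 7, and their part in the Prss35 values was not tested. Postn, at 3530 CPM, made up most of the day 7 sum. Cthrc1, Lrrc15 and Adam12 also had their highest mean at day 7, but Acta2 and Tnc had theirs at day 3. Tagln and Myl9 were highest at day 5. Acta2 averaged 229 CPM at day 3 and 147 CPM at day 7, and Tnc 590 and 256 CPM. These bulk libraries do not show which cells made any of the 6 transcripts, so the genes are not called epithelial here.

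Among the members themselves, r over the 15 libraries was 0.839 for Serpina9 with Fetub, 0.836 for Spink7 with Prss35, 0.753 for Slpi with Tmprss11g and 0.745 for Tmprss11g with Fetub. It was -0.58 for Slpi with Prss35 and -0.313 for Slpi with Spink7.

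**Figure D4:**
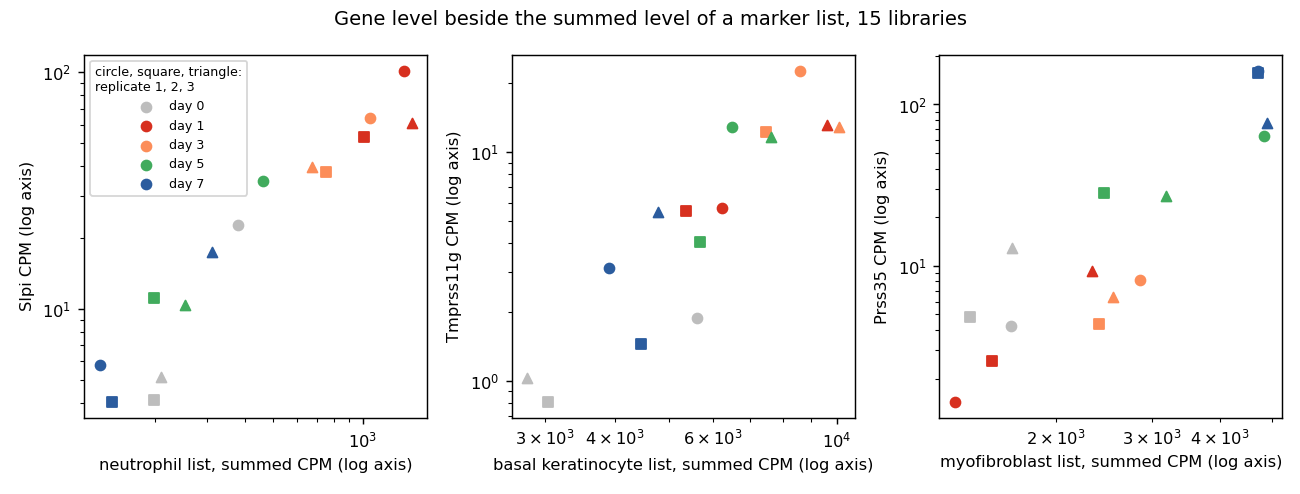
TMM-scaled CPM of members against the summed CPM of marker lists (both axes log), a point for each of the 15 libraries. Slpi is set beside neutrophil markers (130 to 1460 CPM), Tmprss11g beside basal keratinocyte markers (2790 to 10100 CPM) and Prss35 beside myofibroblast markers (1300 to 4890 CPM), and the libraries of a time share a colour. Within each list the day of the highest mean differs between genes.

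Relatives of the members were read from 10 lists of related inhibitors and proteases, which hold 165 genes other than the members, of which 116 were tested. An F test for any difference among the 5 times called 21 of them, or 18.1%, against 13.9% of all genes. The same 13.9% is the share to set beside the F-test count of each list below. Among relatives of Slpi with WAP domains, 3 of 7 were called. Wfdc17 averaged 88.8, 144, 110, 72.4 and 51.3 CPM at day 0, 1, 3, 5 and 7 and Wfdc12 averaged 4.96, 20.5, 29.9, 34.7 and 9.07 CPM. Wfdc21 was lowest at day 3, with 77.2, 50.1, 39.1, 53.0 and 81.5 CPM. The 3 relatives had their highest means on day 1, 5 and 7, and Wfdc17 shared the day of Slpi.

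Among granule proteases of leukocytes, a list that holds the Slpi targets Elane and Ctsg beside other enzymes, 2 of 13 tested were called. Prtn3, neutrophil proteinase 3, which Slpi inhibits poorly, averaged 2.01, 5.34, 2.35, 1.53 and 1.15 CPM at day 0, 1, 3, 5 and 7. Named after its values were seen, the mast cell tryptase Tpsab1 averaged 3.4, 1.2, 0.985, 0.707 and 0.558 CPM. Elane, the neutrophil elastase gene, was too low to test, with means of at most 0.132 CPM, and Ctsg, cathepsin G, averaged at most 0.585 CPM (edgeR adjusted p = 0.887 over the 5 times). Transcripts of both main targets of Slpi were therefore scarce at each time. Their proteins were not measured, so the amount of either enzyme in the skin cannot be read from these values.

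Of 13 tested type II transmembrane serine proteases on the list besides Tmprss11g, 3 were called over the 5 times, and 5 were called higher at day 7 than at day 1, beside 5.75% of all genes (median log2 difference of the 13, 0.74, against 0.03 over all genes). The list does not hold Tmprss11b, which is described here as a neighbour of Tmprss11g and is not in these counts. Tmprss11g lies in a cluster with 5 tested relatives in the order Tmprss11d, Tmprss11a, Tmprss11g, Tmprss11f, Tmprss11b and Tmprss11e, by the GENCODE M21 annotation. Tmprss11b averaged 2.70, 5.49, 20.4, 15 and 12.9 CPM at day 0, 1, 3, 5 and 7 (edgeR adjusted p = 0.0417 over the 5 times). Like Tmprss11g it was highest at day 3, but at day 7 its libraries were at 14.2, 10.4 and 14.2 CPM when those of Tmprss11g were at 3.11, 1.45 and 5.45 CPM. Tmprss11a averaged 0.615, 0.275, 2.14, 4.28 and 3.01 CPM (edgeR adjusted p = 0.0187). Tmprss11e, also known as DESC1, averaged 13.2, 14.1, 15, 39.5 and 41.7 CPM (edgeR adjusted p = 0.035). Tmprss11f averaged 56.4 CPM at day 7 and 29.2 CPM at day 0 (edgeR adjusted p = 0.0548) and Tmprss11d averaged 0.22, 1.13, 2.41, 2.16 and 1.01 CPM (edgeR adjusted p = 0.0603). Day 7 replicate 3, a library rich in hair follicle markers, held 79.1 CPM of Tmprss11e and 82.9 CPM of Tmprss11f, and the part of hair follicle cells in these values was not tested. Without it and day 5 replicate 2, the other such library, Tmprss11e averaged 22.9 CPM at day 7 and 31.3 CPM at day 5, and Tmprss11f 43.2 CPM at day 7 and 43.0 CPM at day 5. Tmprss11b, Tmprss11d and Tmprss11g had their highest means at day 3 and Tmprss11a at day 5, and differences between genes of the cluster were not tested. Tmprss13, a related protease encoded elsewhere, averaged 28.5, 25.2, 26.6, 42.4 and 42.1 CPM (edgeR adjusted p = 0.0377).

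**Figure D5:**
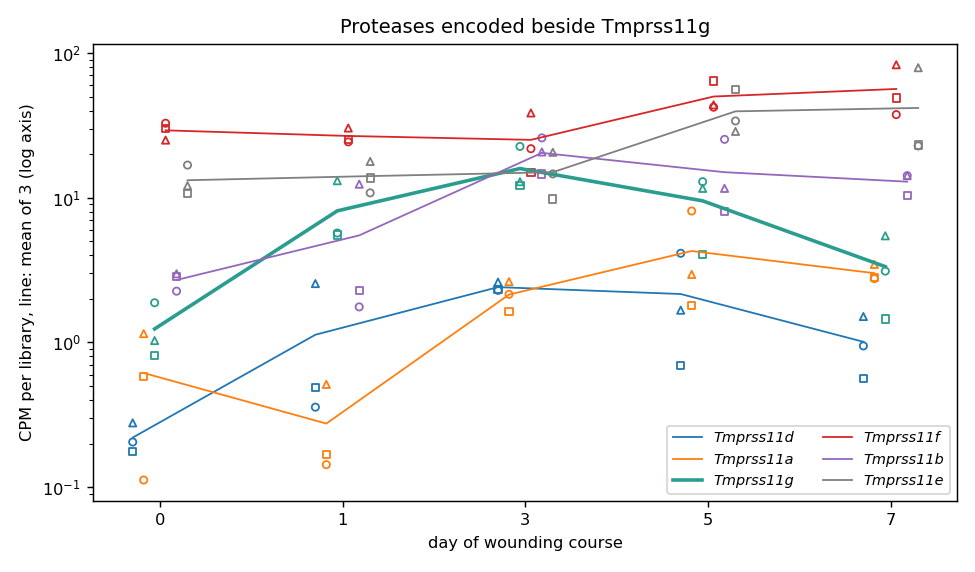
TMM-scaled CPM (log axis) of Tmprss11g and 5 relatives of its cluster, a symbol for each library (circle, square and triangle for replicate 1, 2 and 3) and a line through the means of 3. Tmprss11g and Tmprss11b are both highest at day 3, and at day 7 Tmprss11g is at 1.45 to 5.45 CPM and Tmprss11b at 10.4 to 14.2 CPM.

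Of 6 tested Kazal-type relatives of Spink7, 1 was called, Spink4, named after its values were seen, with 0.158, 0.78, 0.313, 0.172 and 0.0628 CPM at day 0, 1, 3, 5 and 7. Its mean was highest at day 1 and lowest at day 7, the day on which Spink7 was highest. Spink5, which encodes the epidermal inhibitor LEKTI, averaged 329, 415, 507, 546 and 511 CPM (edgeR adjusted p = 0.242). Of 19 tested genes of the epidermal protease cascade, 3 were called, with Tmprss11e and Tmprss13 among them. Klk14, a kallikrein of epidermal shedding named after its values were seen, averaged 0.165, 0.496, 0.787, 4.46 and 1.74 CPM, highest at day 5 (0.959 CPM at day 7 without replicate 3). It rose by 3.17 ± 0.65 on the log2 scale at day 5 against day 1 (edgeR adjusted p = 0.0144). Of 13 tested genes named Prss besides Prss35, edgeR called 0, with 1 at an unadjusted p under 0.05, 1 called by DESeq2 and 0 by limma voom. Prss23 averaged 248, 155, 164, 150 and 168 CPM and Prss8, prostasin, 24.6, 21.3, 23.2, 44.7 and 40.5 CPM (edgeR adjusted p = 0.171 and 0.0606).

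Of 18 tested clade A serpins besides Serpina9, 4 were called, and 5 were called lower at day 7 than at day 1, beside 8.59% of all genes (median log2 difference of the 18, -0.57, against 0.03 over all genes). Serpina3n, an acute-phase inhibitor, averaged 283, 1070, 660, 301 and 140 CPM at day 0, 1, 3, 5 and 7, and at day 7 against day 1 it fell by 2.94 ± 0.43 on the log2 scale (edgeR adjusted p = 0.0014). Serpina3m averaged 12.3, 42.0, 17.4, 8.38 and 5.50 CPM, and both have close copies that leave their values uncertain. The remaining calls, named after their values were seen, were Serpina3k and Serpina1c, at or below 4.27 and 0.818 CPM in every mean. These relatives were highest at day 1, whereas Serpina9 was highest at day 5. Of 20 tested clade B serpins, 2 were called. Serpinb1a, an inhibitor of neutrophil serine proteases, averaged 63.0, 130, 82.6, 60.2 and 43.1 CPM, and Serpinb11 averaged 12.4, 12.9, 14.5, 31.4 and 34.8 CPM. Serpinb1a thus shared its day of highest mean with Slpi.

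Of 14 tested cystatin-superfamily genes besides Fetub, 5 were called, 4 of them stefins with close copies and uncertain values. Stfa1 averaged 39.6, 230, 225, 97.4 and 66.9 CPM and Stfa3 46.8, 150, 249, 270 and 265 CPM at day 0, 1, 3, 5 and 7. Kng2, a kininogen gene 2 genes from Fetub on chromosome 16, averaged 0.60, 2.93, 5.52, 1.58 and 0.715 CPM (edgeR adjusted p = 0.0152). Ahsg and Hrg, which flank Fetub and encode plasma proteins of the same superfamily, averaged at most 0.702 and 0.0225 CPM at any time. Of the astacin family, which holds the known targets of fetuin-B, 2 genes were high enough to test and edgeR called 0, with 1 at an unadjusted p under 0.05, 1 called by DESeq2 and 0 by limma voom. Bmp1 averaged 190, 139, 232, 184 and 195 CPM, while Mep1a, Mep1b and Astl, the ovastacin gene, averaged at most 0.0626, 0.0179 and 0.0453 CPM.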

How the data were processed

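Polyadenylated RNA of 15 skin libraries was measured. The authors deposited estimated counts per gene symbol, quantified by kallisto 0.43 according to the submitters' processing notes. For the transcript index, annotation, build and strand setting, nothing is stated in the sources used here, and genes with near-identical copies have uncertain values. The estimated counts were rounded, which left these whole numbers as they were, and 26 rows per library named as dates (0.155% to 0.179% of the counts) were left out. Genes were kept by edgeR's filter (minimum count 10), which left 17136 of 30281. TMM scaling was applied to the libraries, and 1 quasi-likelihood model was fitted with each of the 5 times as a group (edgeR 4.0.16, R 4.3.3), tested on simulated data beforehand. P-values are two-sided for pairs of times and carry a Benjamini-Hochberg adjustment across every tested gene. A standard error is the size of the log2 fold change divided by the root of its F value. Log2 CPM for correlations used a prior count of 2. The common biological coefficient of variation was 30.9%, so at 38062562 to 60450396 estimated counts a library, counting error was small beside the replicate spread except for Spink7 and other genes with few reads. The median log2 difference over all genes stayed within 0.0345 of 0 in all 10 comparisons.

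The members and the gene lists were chosen with earlier results of these data known. Beside the members, the text names up to 5 called genes per list of relatives with a mean of at least 5 CPM at some time, the 5 genes most alike each member and neighbours of a member. Some called genes of the lists below that level, and some uncalled ones, were added after their values were seen. Transcript lengths and gene order came from GENCODE M21 and promoter sequences from RefSeq (GRCm38.p6). Alternatives were DESeq2 1.42.0, limma voom 3.58.1, other scalings and filters, the replicate number as a block, a model of only the times compared, and leaving out each library. Whether replicate numbers pair the samples is not labelled and was not settled, as the closing section describes.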

Additional observations from a re-analysis of the deposited data

How the results depend on the processing

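No called difference of a member changed direction under any alternative, but counts of called members moved. Against day 0, DESeq2 called 4, 4 and 5 members at day 1, 3 and 5, where edgeR called 2, 2 and 2. At day 1 the count was 1 without the filter on low counts, with limma voom and with only the times compared in the model. At day 3 it was 1 with upper-quartile scaling, without the filter, with limma voom and with the replicate block. At day 5 it was 1 with limma voom, 0 with only the times compared and 4 without the 2 libraries rich in hair follicle genes, a setting added after the data were seen. For day 5 against day 1 the count of 3 became 5 with DESeq2, 5 with limma voom and 0 with only the times compared. For day 7 against day 1 the count of 4 became 2 with only the times compared. For day 7 against day 3 the count of 2 became 4 with DESeq2, 4 with limma voom and 1 with only the times compared. For day 5 against day 3 DESeq2 called 1 where edgeR called 0. For the F test among day 1, 3, 5 and 7, the count of 2 became 6 with DESeq2 and 4 with the replicate block. The 21 called relatives became 49 with DESeq2. The cause of these moves was not tested.

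Leaving out each library in turn gave, against day 0, between 0 and 3 called members for day 1 and for day 3, between 0 and 4 for day 5, and between 2 and 4 for day 7. It gave 0 to 3 for day 5 against day 1, 1 to 4 for day 7 against day 1, 0 to 3 for day 7 against day 3, 1 to 3 for the F test among the later times and 10 to 32 called relatives. The 3 comparisons of neighbouring times gave 0 throughout. A time left with 2 libraries shares the spread of the others.

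The labels do not say that replicate numbers pair the samples, and a pairing was neither shown nor excluded. Deviations of same-numbered libraries from their group means correlated at -0.729 to 0.486 over 30 pairs, 13 of them over 0.1. The median was 0.0785, against -0.0198 for libraries of different number, and 7 of the 15 libraries correlated best with their own number. Day 5 replicate 2 and day 7 replicate 3, both rich in hair follicle markers, correlated at 0.783. Differences in tissue content can thus hide a pairing from this check. With the replicate block the Serpina9 difference was 2.16 at day 3 against day 0 (edgeR adjusted p = 0.0636), 1.58 at day 5 against day 1 (edgeR adjusted p = 0.0586), and 1.31 at day 7 against day 1 (edgeR adjusted p = 0.067), so these calls were lost. With 3 libraries a time, counts near the threshold of 0.05 depend on single libraries, and Spink7 rests on 1 to 50 estimated counts a library at day 0 and day 1.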
